A study of Mus musculus with 24 samples.

Results

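Calorie-restricted mouse livers were compared with ad libitum livers at zeitgeber time (ZT) 10 h, the late part of the light phase, when mice mostly rest. The comparison took in every library labelled with that time, 2 of CR and 2 of AL, 4 of the 24 libraries of the series, and all 15490 genes that passed the filter on low counts. RNA bound to polysomes, messenger RNA that carries several ribosomes, was sequenced after selection of poly(A) tails. All mice were C57BL/6 and 5 months old. The CR mice had received a diet cut by 30% for 3 months, beginning at 2 months of age, and the AL mice ate without limit. No genotype or agent other than the diet distinguishes the groups in the labels, and the sources used here give no sex, no hours of feeding and no pooling of animals. The libraries are named CR 1B, CR 2, AL 1 and AL 2, and nothing in the labels says that they came from separate animals, so p-values measure the spread between libraries, which may be partly technical. Total RNA was not analysed here, so the amount of a transcript and its loading onto polysomes cannot be told apart.

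The liver switches between storing nutrients after a meal and releasing glucose and ketone bodies during a fast. Mouse liver also differs strongly between the sexes: pulses of growth hormone in males act through the transcription factor STAT5b to keep male genes on, and the steadier hormone profile of females supports a separate set of cytochromes P450, sulfotransferases and transporters. A circadian clock of activators (Clock, Arntl, Npas2) and repressors (the Per and Cry genes, Nr1d1, Nr1d2) runs in hepatocytes and responds to feeding.

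The libraries held 51.0 and 29.8 M counted reads in CR 1B and CR 2, against 37.6 and 33.1 M in AL 1 and AL 2. Features that collect ribosomal RNA took 2.42% and 52.1% of the reads in CR 1B and CR 2, against 7.65% and 16.5% in AL 1 and AL 2, which left 49.7, 14.3, 34.7 and 27.6 M other reads in the same order. Spearman's rho across genes was 0.919 between the CR libraries, the lowest of the 12 groups, and 0.982 between the AL libraries. The CR libraries differed by transcript length: the median of the log2 difference, CR 1B minus CR 2, was 0.823 over 446 genes with up to 1500 exonic bases and -0.388 over 2415 genes with more than 5000. The same medians for AL 1 minus AL 2 were -0.124 and -0.0506. Hepatocyte markers summed to at least 58170 CPM (read counts relative to library size, scaled with TMM factors) in each library, and the Y-linked gene Ddx3y had 5240 and 2057 counts in CR 1B and CR 2, against 2528 and 1886 in AL 1 and AL 2, with Xist, which is transcribed from an inactive X, at 0 to 2 counts. Of 14 pancreatic marker genes, 10 had no count in any of the 4.

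Restriction was accompanied at ZT10 by 2 opposite shifts of large size: genes of female liver rose (20 of 30 tested) and genes of male liver fell (23 of 30 tested), among them the major urinary proteins. Both lists were written from general knowledge with earlier results of these data known. Their counts, here and below, therefore describe the chosen members and are no independent test. Of the 15490 genes tested, 115 were called (0.742%) in the quasi-likelihood test of edgeR at an adjusted p under 0.05 (Benjamini-Hochberg). Of these, 46 were higher in CR (0.297% of genes tested) and 69 were lower (0.445%). The called changes were large, with a median absolute log2 fold change of 3.67 and a smallest of 1.20, while the median over all genes tested was 0.04. In all 115 both CR libraries lay on one side of both AL libraries, which held for 38.5% of all genes tested. At an unadjusted p under 0.05 there were 803 genes higher and 866 lower (5.18% and 5.59%). Of the 115 genes, 43 belong to the lists of male- or female-biased liver genes and 59 to no list used here. Without a single library the count was 223 (CR 1B), 160 (CR 2), 64 (AL 1) or 40 (AL 2), and 33 of the 115 genes, 10 higher and 23 lower, were called whichever library was left out.

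**Figure D1:**
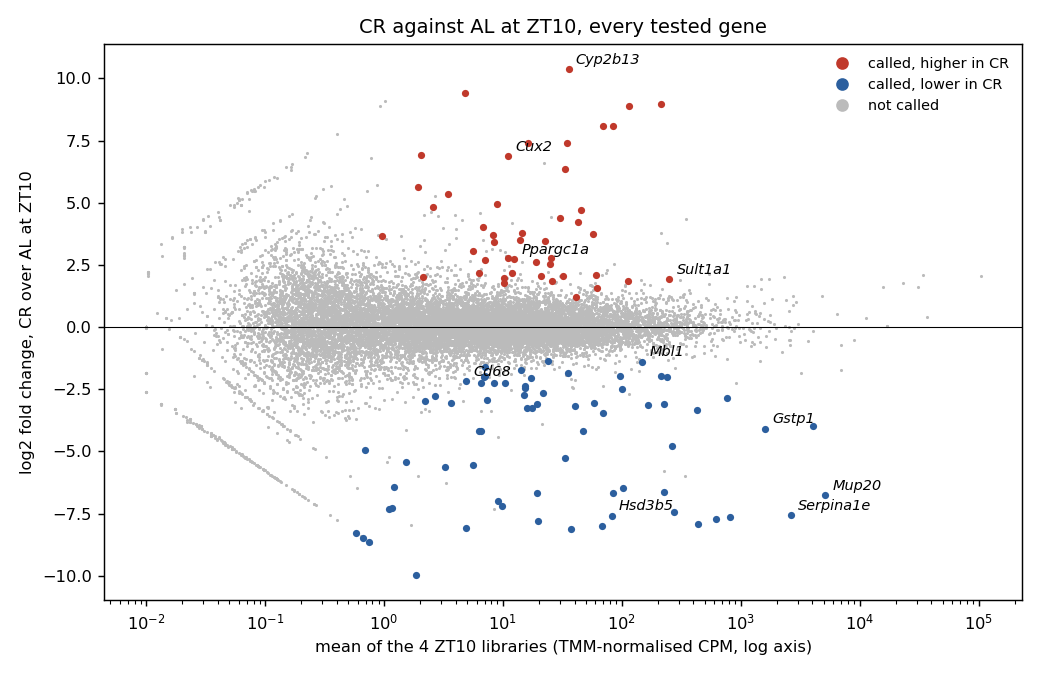
Log2 fold change of CR over AL at ZT10 against the mean of the 4 libraries (TMM-normalised CPM, log axis, means under 0.01 drawn at 0.01), 1 point per tested gene. The 46 genes called higher in CR are red, the 69 called lower are blue, and the called genes lie far from 0, at an absolute log2 fold change of at least 1.20.

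Short and long transcripts were not called alike. Among genes of up to 1500 exonic bases, 1 was called higher and 26 lower in CR of 2138 tested. From 1500 to 5000 bases these numbers were 24 and 35 of 7589, and above 5000 bases 21 and 8 of 5747. The median log2 fold change was -0.109, -0.0857 and 0.232 in these classes, and the part of the length difference between the CR libraries in these counts was not tested. Many genes of the major urinary proteins are short, and 15 genes of that family were called lower. Their part in these counts was not tested either.

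Female-biased liver genes made up the largest group of rises: 20 of the 30 tested were called higher in CR and 0 lower, beside 0.297% and 0.445% of all genes. Their median log2 fold change was 4.57 against 0.04 for all genes. In 27 of the 30 both CR libraries exceeded both AL libraries, as in 16.6% of all genes, and the summed level of the list was 1340 and 2184 CPM in CR 1B and CR 2, against 140.7 and 150.4 CPM in AL 1 and AL 2. Cyp2b13, a cytochrome P450 of female liver (GRCm38 and GENCODE M21, chromosome 7, 26061497 to 26096197, plus strand), had 47.7 and 94.7 CPM in CR, against 0.0531 and 0.0465 CPM in AL. Both AL libraries were near the lowest level that can be counted, and the rise was 10.37 ± 1.59 log2 units (SE, adjusted p = 0.0014 by edgeR with Benjamini-Hochberg adjustment). Its neighbour Cyp2b9 (26173411 to 26210661, plus strand) had 113 and 224 CPM in CR, against 0.602 and 0.651 CPM in AL, a rise of 8.07 ± 1.17. Cyp2a4, a steroid hydroxylase of the same chromosome, had 170 and 285 CPM in CR, against 0.336 and 0.627 CPM in AL, a rise of 8.89 ± 1.38. Cyp2a22 rose by 8.10 ± 1.33, Cyp2c69 by 6.35 ± 1.07 and Cyp2c40 by 4.40 ± 0.84. The share of words of 50 bases that a gene's transcripts share with other genes was 60.3% for Cyp2c40, 54.3% for Cyp2c69, 38.8% for Cyp2a4 and 27.3% for Cyp2b13, so reads can be split among these paralogs. Without AL 1 the calls of Cyp2a22 (log2 fold change 8.06, adjusted p = 0.0512), Cyp2c69 (6.00, 0.069) and Cyp2c40 (4.27, 0.156) were lost, and without AL 2 as well (0.0619, 0.0515 and 0.119), by edgeR.

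Cyp2b13 and Cyp2b9 rose together, and the bases before their annotated starts are nearly the same, which is why they are shown. The 250 bases upstream of the RefSeq start (GRCm38.p6, plus strand, chr7:26061245-26061494 for Cyp2b13 and chr7:26173159-26173408 for Cyp2b9) are identical at 248 of 250 positions, or 99.2%. Capitals mark the half-site AGGTCA of nuclear receptors, 138 bases before the start (position -138) in both.
Cyp2b13: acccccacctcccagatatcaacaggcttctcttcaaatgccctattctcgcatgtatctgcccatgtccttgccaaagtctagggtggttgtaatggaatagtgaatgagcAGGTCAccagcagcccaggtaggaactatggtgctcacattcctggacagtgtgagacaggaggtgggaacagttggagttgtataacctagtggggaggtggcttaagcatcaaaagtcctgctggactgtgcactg
Cyp2b9: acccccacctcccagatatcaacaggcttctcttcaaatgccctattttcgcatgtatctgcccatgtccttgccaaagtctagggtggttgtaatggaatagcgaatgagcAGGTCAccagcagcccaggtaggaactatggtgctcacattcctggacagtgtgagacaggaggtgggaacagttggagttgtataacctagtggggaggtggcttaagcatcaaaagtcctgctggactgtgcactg
RefSeq windows from 250 bases before to 50 after the start were searched on both strands for AGGTCA, for the E-box CACGTG bound by clock activators, for the D-box TTATGTAA and for the STAT5 motif TTCNNNGAA. AGGTCA stood in 16 of 47 windows of the genes called higher (34.0%, 35 genes matched) and in 18 of 66 windows of the genes called lower (27.3%, 51 genes matched), beside 13.4% of the windows of tested genes and 16.3% of all 32851 windows. TTCNNNGAA stood in 12.8% and 6.06% of these windows, beside 6.97% of the windows of tested genes and 8.3% of all. The E-box stood in 6.38% and 3.03%, beside 9.47% for tested genes and 7.15% of all, and the D-box in 2.13% and 0 windows, beside 0.612% for tested genes and 0.938% of all. A match is a description of letters and not a binding site.

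Other female-biased genes that rose serve drug and lipid metabolism, transport and gene control. Fmo2, a flavin monooxygenase, had 11.2 and 27.7 CPM in CR, against 2.46 and 3.18 CPM in AL. Cux2, a homeobox repressor of male genes in female liver (chromosome 5, 121856366 to 122050102, minus strand), had 18.4 and 25.7 CPM in CR, against 0.265 and 0.0929 CPM in AL, a rise of 6.87 ± 0.85 log2 units (adjusted p = 0.000344 by edgeR with Benjamini-Hochberg adjustment). Among transporters, the organic anion transporter gene Slc22a26 rose by 7.41 ± 1.13, its family member Slc22a27, which is on neither sex list, by 7.41 ± 1.20, and Slco1a4 rose by 3.76 ± 0.48 with 61.0 and 152 CPM in CR, against 6.25 and 9.50 CPM in AL. Nipal1, a magnesium transporter, had 18.9 and 15.6 CPM in CR, against 0.761 and 0.349 CPM in AL. Acot3, a peroxisomal thioesterase, had 40.0 and 121 CPM in CR, against 5.56 and 3.09 CPM in AL, and Abcd2, which carries very long fatty acids into peroxisomes, had 20.4 and 62.9 CPM in CR, against 4.07 and 3.46 CPM in AL. Sult3a1, a sulfotransferase, had 1148 counts in CR, against 1 in AL, a ratio of 1150 with a 95% counting interval of 206 to 45500. Lrtm1, likewise on neither sex list, had 149 and 26.5 CPM in CR 1B and CR 2, against 4.65 and 2.02 CPM in AL. CR 1B stood far above CR 2 in this gene, and its call was lost without CR 1B (log2 fold change 2.97, adjusted p = 0.0865), AL 1 (5.51, 0.0863) or AL 2 (4.22, 0.267). The call of Acot3 was lost without CR 2 (3.19, 0.103), AL 1 (4.73, 0.236) or AL 2 (3.84, 0.436), those of Slc22a27 and Abcd2 without AL 2 (6.99, 0.0653 and 3.34, 0.0877), that of Fmo2 without AL 1 (2.63, 0.0677) and that of Sult3a1 without AL 1 or AL 2 (adjusted p = 0.236 and 0.143), all by edgeR. Not called in this list were, for example, the sulfotransferases Sult1e1 (5.29, adjusted p = 0.151) and Sult2a1 (4.52, 0.164), whose groups did not overlap, and Adh4 (-0.25, 0.824).

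**Figure D2:**
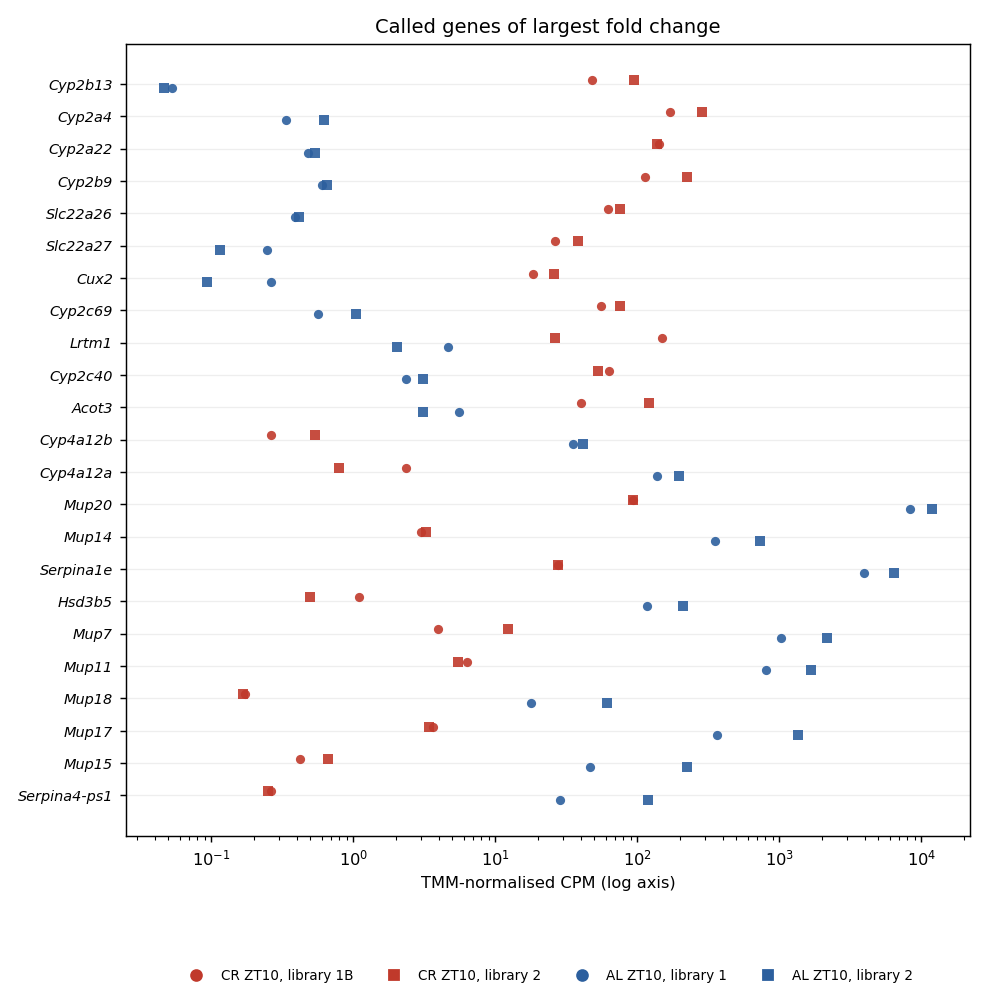
TMM-normalised CPM (log axis) of called genes of largest fold change, 11 higher and 12 lower in CR, 1 row per gene, CR libraries in red above AL libraries in blue. In all 23 genes both CR libraries lie on one side of both AL libraries, from 47.7 and 94.7 against 0.0531 and 0.0465 CPM in Cyp2b13 at the top to 0.266 and 0.250 against 28.7 and 119 CPM in Serpina4-ps1 at the bottom.

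Male-biased liver genes fell: 23 of the 30 tested were called lower in CR and 0 higher, beside 0.445% and 0.297% of all genes. Their median log2 fold change was -4.67. In all 30 both CR libraries lay below both AL libraries, as in 21.9% of all genes, and the list summed to 1074 and 1105 CPM in CR 1B and CR 2, against 21890 and 33800 CPM in AL 1 and AL 2. Among them were the major urinary proteins, which carry pheromones in male urine. Of 31 tested genes and pseudogenes whose symbols begin with Mup, 15 were called lower and 0 higher, beside 0.445% and 0.297% of all genes. Their median was -6.01. Mup20, the male pheromone darcin (chromosome 4, 62050234 to 62054158, minus strand), had 94.1 and 92.7 CPM in CR, against 8324 and 11925 CPM in AL. The CR libraries were alike and both AL libraries far above them, and the level fell by 6.76 log2 units (SE 1.06, adjusted p = 0.00153 by edgeR with Benjamini-Hochberg adjustment). Mup11 had 6.30 and 5.46 CPM in CR, against 809 and 1662 CPM in AL. Mup7 had 3.98 and 12.3 CPM in CR, against 1031 and 2173 CPM in AL. Mup17, Mup15, Mup18 and Mup14 had 0.167 to 3.65 CPM in CR and 17.8 to 1362 CPM in AL. Mup3, with 480 and 490 CPM in CR, against 7145 and 8068 CPM in AL, fell by 3.97 log2 units (SE 0.76), less than the other Mup genes named here, a difference that was not tested. Mup15, Mup18 and Mup3 are not on the male-biased list. Many of these genes share sequence: the share of 50-base words found in other genes was 100% for Mup15, 89.6% for Mup18, 86.7% for Mup7, 78.1% for Mup17, 50.5% for Mup20 and 13.3% for Mup3, so the value of a single Mup gene is uncertain where that share is high. The call of Mup3 was lost without CR 2 (log2 fold change -4.00, adjusted p = 0.0548 by edgeR).

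The bases before the starts of Mup17 and Mup15 are shown as the male counterpart of the Cyp2b pair. The 250 bases upstream of the RefSeq start (GRCm38.p6, minus strand, chr4:61595833-61596082 for Mup17 and chr4:61439705-61439954 for Mup15) aligned with 247 identical bases in 253 columns, or 97.6%. They hold none of the 4 motifs on either strand and carry no capitals.
Mup17: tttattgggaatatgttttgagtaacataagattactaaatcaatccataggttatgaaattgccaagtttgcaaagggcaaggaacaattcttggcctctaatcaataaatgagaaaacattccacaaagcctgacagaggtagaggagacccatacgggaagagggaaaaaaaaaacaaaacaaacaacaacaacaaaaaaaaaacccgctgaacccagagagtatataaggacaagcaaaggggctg
Mup15: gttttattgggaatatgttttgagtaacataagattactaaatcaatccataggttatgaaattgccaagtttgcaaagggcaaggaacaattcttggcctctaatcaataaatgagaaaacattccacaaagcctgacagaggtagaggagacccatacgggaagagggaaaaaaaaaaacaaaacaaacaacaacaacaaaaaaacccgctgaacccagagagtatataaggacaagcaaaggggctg
Windows of 8 of the 12 lower genes of largest fold change were matched, and none of the 4 motifs stood in them. Windows of 11 of the 12 higher genes were matched, and AGGTCA stood in 6 of their 13 windows (46.2%). These were the overlapping windows of Acot3, the nearly identical ones of Cyp2b13 and Cyp2b9, and those of Cyp2a4 and Slc22a27. Most of the 8 lower genes matched were Mup genes, so windows on either side are not independent. Over all called genes AGGTCA stood in 34.0% of the windows of higher and 27.3% of those of lower genes.

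Enzymes, inhibitors and transporters of male liver fell with the urinary proteins. Hsd3b5, a steroid dehydrogenase (chromosome 3, 98618634 to 98630252, minus strand), had 1.10 and 0.50 CPM in CR, against 116 and 210 CPM in AL, and fell by 7.59 log2 units (SE 0.92, adjusted p = 0.000344 by edgeR with Benjamini-Hochberg adjustment). Serpina1e, a protease inhibitor of plasma (chromosome 12, 103946931 to 103958975, minus strand), had 27.9 and 27.7 CPM in CR, against 3974 and 6482 CPM in AL. Its pseudogene relative Serpina4-ps1, which is on neither sex list, had 0.266 and 0.250 CPM in CR, against 28.7 and 119 CPM in AL. The fatty acid hydroxylase Cyp4a12a had 2.35 and 0.792 CPM in CR, against 139 and 198 CPM in AL, and Cyp4a12b, which shares 49.4% of its words with other genes, had 0.266 and 0.542 CPM in CR, against 35.2 and 41.4 CPM in AL. Slco1a1, an organic anion transporter, had 2.10 and 2.50 CPM in CR, against 173 and 230 CPM in AL, while its family member Slco1a4 rose. Selenbp2, a selenium-binding protein, had 4.81 and 4.21 CPM in CR, against 187 and 704 CPM in AL. Gstp1, a glutathione transferase, had 126 and 231 CPM in CR, against 2756 and 3319 CPM in AL. Of 4 tested genes of its family 3 were called lower, beside 0.445% of all genes. These 3, of which 1 is a pseudogene, share 33.7% to 71.1% of their words with other genes, so reads can be split among them. Nudt7, a peroxisomal enzyme that cleaves coenzyme A, had 93.5 and 60.7 CPM in CR, against 600 and 971 CPM in AL. Cyp7b1, an oxysterol hydroxylase, had 35.8 and 33.0 CPM in CR, against 266 and 330 CPM in AL. Cspg5 had 0 counts in CR, against 381 in AL, and was at least 127-fold lower (floor of 3 counts over the group). The groups overlapped in none of these genes. Calls were lost without CR 1B for Cyp4a12b (log2 fold change -6.14, adjusted p = 0.061), Cspg5 (adjusted p = 0.0556) and Cyp7b1 (-3.19, 0.0507), and for Cyp7b1 also without CR 2 (0.0676) or AL 2 (0.0719), by edgeR. The members not called included Elovl3, a fatty acid elongase (-3.91, adjusted p = 0.0722), and Bcl6, a repressor of female genes (-1.64, 0.418).

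Some genes of the terminal complement complex were among those called lower. Of 31 tested complement and coagulation genes 5 were called lower and 0 higher, beside 0.445% and 0.297% of all genes. The median was 0.07, or -0.29 with no composition factor. The called genes were C6, C8a, C8b and C9, which are part of the membrane attack complex, and Mbl1, a mannose-binding lectin. C6, C8a and C9 are also on the male-biased list. C6 had 11.4 and 11.7 CPM in CR, against 98.2 and 155 CPM in AL, and fell by 3.46 log2 units (SE 0.68, adjusted p = 0.0121 by edgeR with Benjamini-Hochberg adjustment). C8b had 23.5 and 37.2 CPM in CR, against 134 and 208 CPM in AL, and C9 had 102 and 71.7 CPM in CR, against 302 and 384 CPM in AL. Mbl1 had 85.7 and 79.1 CPM in CR, against 238 and 193 CPM in AL, and C8a had 42.4 and 54.1 CPM in CR, against 436 and 378 CPM in AL. Each of the 5 calls rests on single libraries: C8a and Mbl1 lost their call whichever of the 4 was left out (adjusted p from 0.0954 to 0.162 and from 0.0534 to 0.426), C6 was lost without CR 1B, CR 2 or AL 2 (0.0546, 0.0588 and 0.0877), C8b without CR 1B or AL 2 (0.0825 and 0.154) and C9 without CR 2, AL 1 or AL 2 (0.0973, 0.0569 and 0.159), by edgeR. Acute phase genes, which hepatocytes make during inflammation, summed to 14570 and 16500 CPM in CR, against 24010 and 18080 CPM in AL. Their members were split: of 26 tested, 12 had a positive and 14 a negative log2 fold change. Their median was -0.16, or -0.52 with no composition factor, and the 1 gene called was higher in CR. The part of an acute phase change in the complement values was not tested.

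Genes of fuel use gave fewer calls. Ppargc1a, a coactivator of gluconeogenesis and mitochondrial genes (chromosome 5, 51454250 to 51567726, minus strand), had 19.2 and 24.2 CPM in CR, against 2.87 and 3.72 CPM in AL, a rise of 2.72 ± 0.54 log2 units (adjusted p = 0.0124 by edgeR with Benjamini-Hochberg adjustment). It was the 1 gene called among 15 tested gluconeogenesis genes, whose median was 0.69 and of which 10 had both CR libraries above both AL libraries, as in 16.6% of all genes. None of the other 14 passed the test. Pck1, the cytosolic enzyme that commits carbon to glucose synthesis, had 1791 and 2621 CPM in CR, against 1068 and 474 CPM in AL (1.52 ± 0.57, adjusted p = 0.302), and Got1, an aspartate aminotransferase, had 254 and 275 CPM in CR, against 63.8 and 99.3 CPM in AL (adjusted p = 0.0824). Pdk4, which blocks the entry of pyruvate into the mitochondrial cycle, rose with 2.54 and 4.37 CPM in CR, against 0.814 and 0.860 CPM in AL (2.03 ± 0.45, adjusted p = 0.0291). Ppp1r3g, a glycogen-targeting subunit of a protein phosphatase, rose with 13.2 and 17.2 CPM in CR, against 0.938 and 1.95 CPM in AL (3.40 ± 0.65, adjusted p = 0.00948). Lepr, the leptin receptor, rose with 5.47 and 20.2 CPM in CR, against 0.867 and 0.674 CPM in AL (4.04 ± 0.74, adjusted p = 0.00605). All of these calls were lost without AL 1 or without AL 2, with adjusted p of 0.204 and 0.125 for Ppargc1a, 0.267 and 0.272 for Pdk4, 0.201 and 0.0582 for Ppp1r3g and 0.0692 and 0.127 for Lepr. Those of Pdk4 and Lepr were also lost without CR 2 (log2 fold change 1.58, adjusted p = 0.113, and 2.80, 0.0506).

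None of 24 tested genes of cholesterol synthesis was called. Of these, 23 had a positive log2 fold change, with a median of 0.53, beside a median of 0.04 for all genes. In 11 both CR libraries lay above both AL libraries and in 1 below, beside 16.6% and 21.9% of all genes. Whether the list rose as a set was not tested. Hmgcs1, an enzyme of this pathway, had 810 and 265 CPM in CR, against 171 and 213 CPM in AL (1.49, adjusted p = 0.334 by edgeR). The groups did not overlap in this gene, and 3 genes of the list had an unadjusted p under 0.05, all higher. Of 8 tested urea cycle genes none was called (median 0.58). With no composition factor, where the median of all genes was -0.26, the list medians were 0.25 for cholesterol synthesis, 0.21 for the urea cycle, 0.38 for gluconeogenesis, 0.31 for xenobiotic metabolism and 0.41 for the mitochondrial respiratory genes. Cps1, which opens the cycle, had 666 and 3978 CPM in CR 1B and CR 2, against 430 and 783 CPM in AL (1.94, adjusted p = 0.139), so that CR 2 alone was far above the rest. Without CR 1B the value of Cps1 was 2.70 and passed the test (adjusted p = 0.00482 by edgeR), and without CR 2 it was 0.12 (0.95). The 11 tested respiratory chain genes of the mitochondrial genome had a median of 0.73 and no call, and mt-Co1, a subunit of cytochrome oxidase, with 296 and 2059 CPM in CR, against 417 and 727 CPM in AL, differed more between the CR libraries than between the diets. Cyp7a1, the rate-limiting enzyme of bile acid synthesis, had 110 and 76.9 CPM in CR, against 52.0 and 85.9 CPM in AL (0.44 ± 0.42, adjusted p = 0.756). Fgf21, a fasting hormone, had 0.438 and 0.417 CPM in CR, against 1.75 and 1.39 CPM in AL (-1.87 ± 1.01, 0.524).

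Within the growth hormone axis, Igf1, the hormone that liver releases in response to growth hormone, had 987 and 402 CPM in CR, against 601 and 593 CPM in AL, and both AL values lay between the CR values (0.22 ± 0.37, adjusted p = 0.879 by edgeR). Without CR 1B its log2 fold change was -0.58. The growth hormone receptor Ghr had 156 and 201 CPM in CR, against 260 and 316 CPM in AL (-0.69 ± 0.41, adjusted p = 0.572). Igfbp1, a binding protein that insulin represses, had 6.51 and 30.7 CPM in CR, against 3.01 and 2.07 CPM in AL (2.86 ± 0.97, 0.237). Irs2, an adaptor of the insulin receptor, had 9.10 and 29.6 CPM in CR, against 4.28 and 3.81 CPM in AL (2.25, 0.0666), and was called without CR 1B (2.86, 0.0114).

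Genes of xenobiotic metabolism had a median of 0.63 and 4 calls among 49 tested, all higher in CR, beside 0.297% of all genes. These were Cyp2b9, Cyp2b13 and Cyp2a4, described above with the female-biased genes, and Sult1a1, a sulfotransferase of phenols whose annotated exons overlap those of Sgf29. Sult1a1 had 420 and 375 CPM in CR, against 106 and 102 CPM in AL, a 3.82-fold rise (adjusted p = 0.00948 by edgeR with Benjamini-Hochberg adjustment), which was lost without AL 1 (0.153) or AL 2 (0.178). Por, the reductase that feeds electrons to P450 enzymes, had 424 and 526 CPM in CR, against 159 and 220 CPM in AL (1.32, adjusted p = 0.0802). Over all 77 tested genes named Cyp, 10 were called higher and 4 lower, beside 0.297% and 0.445% of all genes. The higher ones, except Cyp3a59 and Cyp2c39, are on the female-biased list, and the lower ones are on the male-biased list. These counts therefore mostly repeat those of the sex lists. Beside those already named, Cyp17a1, a steroid hydroxylase on the female-biased list, had 24.8 and 26.6 CPM in CR, against 2.30 and 2.23 CPM in AL. Cyp39a1, an oxysterol hydroxylase on the same list, had 21.7 and 62.3 CPM in CR, against 8.51 and 6.04 CPM in AL. Among 16 tested carboxylesterases 4 were called lower, beside 0.445% of all genes. Ces3a, for example, had 232 and 141 CPM in CR, against 1251 and 1428 CPM in AL. Calls were lost without AL 2 for Cyp17a1 (3.47, adjusted p = 0.07), Cyp39a1 (2.29, 0.125) and Ces3a (-2.76, 0.068), for Cyp17a1 also without AL 1 (0.0507), and for Cyp39a1 and Ces3a also without CR 2 (1.56, 0.061 and -2.55, 0.0805). The efflux pump Abcb1a rose by 3.72 ± 0.68, with 10.1 and 20.8 CPM in CR, against 1.33 and 0.999 CPM in AL, and was lost without AL 1 (0.069) or AL 2 (0.143).

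No clock gene was called. Among 5 tested activators and 10 tested repressors of the core clock the medians were 0.57 and 0.66, and 0.25 and 0.33 with no composition factor, beside 0.04 and -0.26 for all genes under these scalings. Per1, a repressor that hormones and feeding induce, had 30.4 and 31.2 CPM in CR, against 9.79 and 11.2 CPM in AL (1.55 ± 0.64, adjusted p = 0.362 by edgeR with Benjamini-Hochberg adjustment). Per3 had 25.4 and 27.2 CPM in CR, against 8.19 and 11.6 CPM in AL (1.41 ± 0.75, 0.521), Per2 had 7.90 and 16.7 CPM in CR, against 4.46 and 6.60 CPM in AL (1.15 ± 0.51, 0.418), and Cry2 had 30.9 and 27.8 CPM in CR, against 16.1 and 13.3 CPM in AL (1.00 ± 0.36, 0.271). In these 4 repressors and in Ciart (1.33 ± 0.57, 0.393) both CR libraries were above both AL libraries. That is 5 of the 10 repressors, beside 16.6% of all genes, and in 2 both CR libraries lay below, beside 21.9%. The mean log2 fold change of the other 5 times was -0.48 in Per2. It was 1.54, 0.52, 0.43 and 0.64 in Per1, Per3, Cry2 and Ciart. These means hide differences between times. At ZT6 the values of Per1, Per3, Cry2 and Ciart were 3.44, 1.78, 1.37 and 2.44, larger than at ZT10, and that of Per2 was -0.19. At ZT22 they were 0.93, 0.28, -0.02 and -0.76, and -1.53 in Per2. Cry1 had 4.56 and 7.87 CPM in CR, against 5.10 and 5.41 CPM in AL, and overlapped (0.23 ± 0.44, 0.898). Nr1d1, the heme-binding repressor of Arntl, had 4.20 and 7.08 CPM in CR, against 10.8 and 9.62 CPM in AL (-0.86 ± 0.54, 0.599), and its annotated exons overlap those of Thra. Nfil3, a repressor at D-boxes, had 2.84 and 5.08 CPM in CR, against 8.60 and 9.41 CPM in AL (-1.20 ± 0.39, 0.208), and Dbp, the activator at the same sites, whose exons overlap those of Sphk2, had 19.1 and 30.9 CPM in CR, against 41.3 and 52.0 CPM in AL (-0.90 ± 0.70, 0.695). Bhlhe41 had 1.59 and 1.21 CPM in CR, against 6.12 and 4.55 CPM in AL (-1.92 ± 1.05, 0.534). Arntl and Npas2, both under 0.5 CPM in all 4 libraries, and Clock (-0.26 ± 0.33, 0.827) gave no call either. The standard errors of the core clock genes ran from 0.33 (Clock) to 1.05 log2 units (Bhlhe41). Of 21 RefSeq windows of the clock genes the E-box CACGTG stood in 6 (28.6%), beside 9.47% of the windows of tested genes and 7.15% of all windows.

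**Figure D3:**
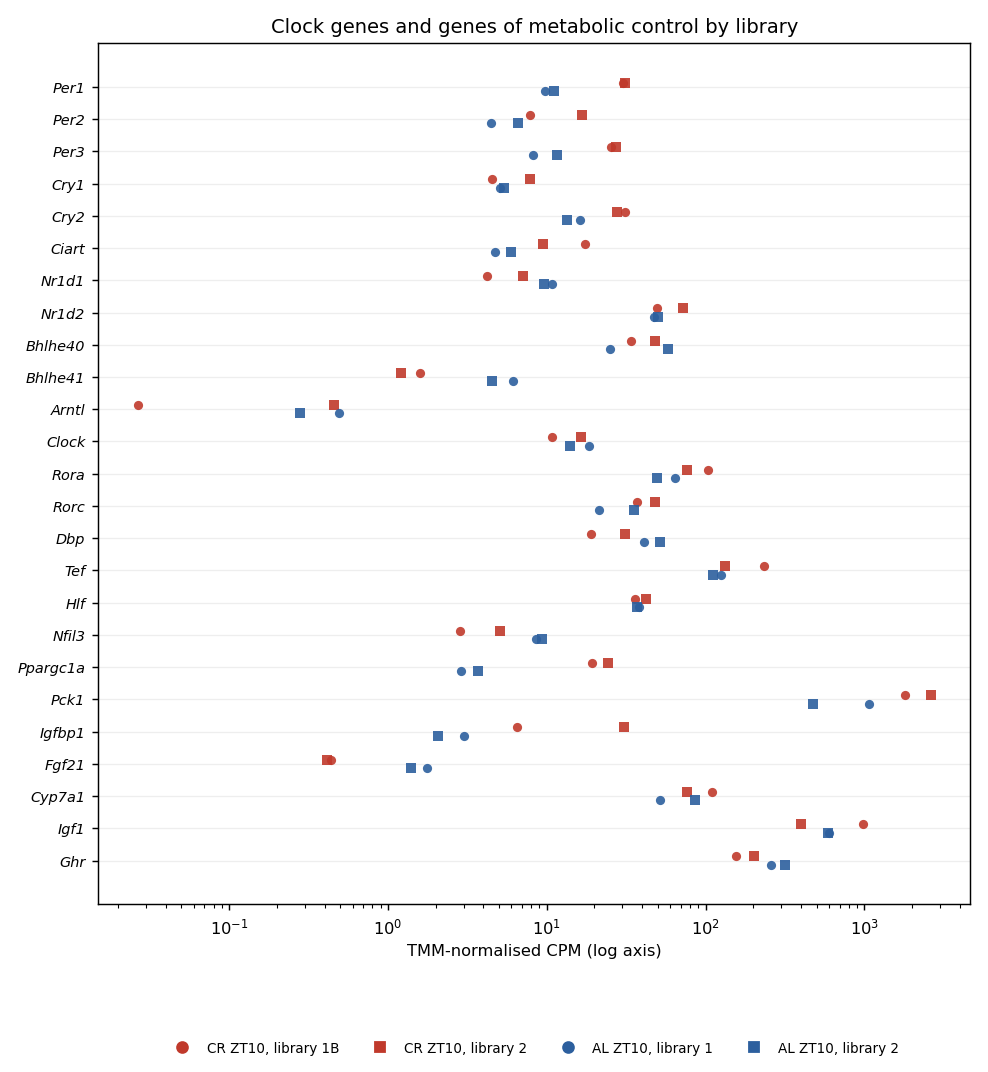
TMM-normalised CPM (log axis) of clock genes and of genes of metabolic control at ZT10, 1 row per gene, CR libraries in red above AL libraries in blue. Both CR libraries exceed both AL libraries in Per1, Per2, Per3 and Cry2, and Ppargc1a, with 19.2 and 24.2 CPM in CR and 2.87 and 3.72 CPM in AL, is the 1 gene of this set that was called.

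Markers of immune cells lay lower in CR, with few calls. Of 18 tested markers of Kupffer cells, which are liver macrophages, 1 was called lower and 0 higher, the median was -1.49, and both CR libraries lay below both AL libraries in 16, as in 21.9% of all genes. Their summed level was 197.9 and 296.3 CPM in CR 1B and CR 2, against 703.3 and 479.4 CPM in AL 1 and AL 2. The called gene was Cd68, a lysosomal glycoprotein of macrophages, with 1.74 and 1.83 CPM in CR, against 9.61 and 6.53 CPM in AL (-2.18 ± 0.49, adjusted p = 0.0349 by edgeR with Benjamini-Hochberg adjustment). Clec4f, a Kupffer cell lectin, had 20.7 and 28.0 CPM in CR, against 87.4 and 56.6 CPM in AL (-1.57, 0.0915), and the complement gene C1qb had 12.8 and 15.5 CPM in CR, against 66.6 and 41.8 CPM in AL (-1.94, 0.0766). Cd74, the invariant chain of antigen presentation, fell with 14.1 and 16.4 CPM in CR, against 75.3 and 34.6 CPM in AL (-1.85 ± 0.42, 0.0336). Cd68 was not called without any single one of the 4 libraries (0.0883 to 0.401), and Cd74 was lost without CR 1B (0.0956), CR 2 (0.0776) or AL 1 (log2 fold change -1.14, 0.672). In bulk liver, fewer cells of a type and less RNA per cell cannot be told apart. T, B and NK cell markers had a median of -1.23 over 16 tested and no call, at a summed level of 9.10 and 7.79 CPM in CR, against 25.2 and 15.3 CPM in AL. In 10 of the 16 both CR libraries lay below both AL libraries and in 0 above, beside 21.9% and 16.6% of all genes. Neutrophil markers summed to 5.65 and 4.71 CPM in CR, against 6.65 and 6.23 CPM in AL, and their defining gene Ly6g had no count.

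Other cell types gave values in both directions. Of 18 stellate cell and fibroblast markers 1 was called, Reln, a secreted matrix protein of stellate cells, with 28.9 and 51.5 CPM in CR, against 11.3 and 10.8 CPM in AL (1.86 ± 0.42, adjusted p = 0.0327 by edgeR with Benjamini-Hochberg adjustment). It was lost without CR 2 (1.37, 0.141), AL 1 (0.255) or AL 2 (0.335). The stellate list summed to 544.5 and 415.3 CPM in CR, against 277.4 and 194.8 CPM in AL, with a median of 0.39, or 0.13 with no composition factor. In 11 of the 18 both CR libraries lay above both AL libraries and in 1 below, beside 16.6% and 21.9% of all genes. Endothelial markers had a median of 0.19, or -0.17 with no composition factor, and no call among 18. The 14 tested hepatocyte markers had no call, a median of -0.11 and a sum of 58280 and 79490 CPM in CR, against 58170 and 66960 CPM in AL. In 5 of the 14 both CR libraries lay below both AL libraries and in 1 above. The cholangiocyte (8 tested, median -0.09) and adipocyte (6 tested, -0.40) markers had no call, and adipocyte markers summed to 1079 and 557.8 CPM in CR, against 1812 and 2361 CPM in AL. Of 3 tested pancreatic markers none was called, with a median of 0.00. Of 7 erythroid markers Alas2, the first enzyme of heme synthesis in red cells, whose exons overlap those of Apex2, fell, with 2.79 and 6.75 CPM in CR, against 22.9 and 28.4 CPM in AL (-2.45 ± 0.51, adjusted p = 0.0189), while the globin Hbb-bs had 437 and 232 CPM in CR, against 370 and 643 CPM in AL (adjusted p = 0.837). Alas2 was lost without CR 1B (-1.94, 0.103) or AL 2 (-2.29, 0.125). With no composition factor the medians were -0.44 for hepatocyte, -0.22 for cholangiocyte and -0.66 for adipocyte markers. The part of cell composition in the other results was not tested.

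**Figure D4:**
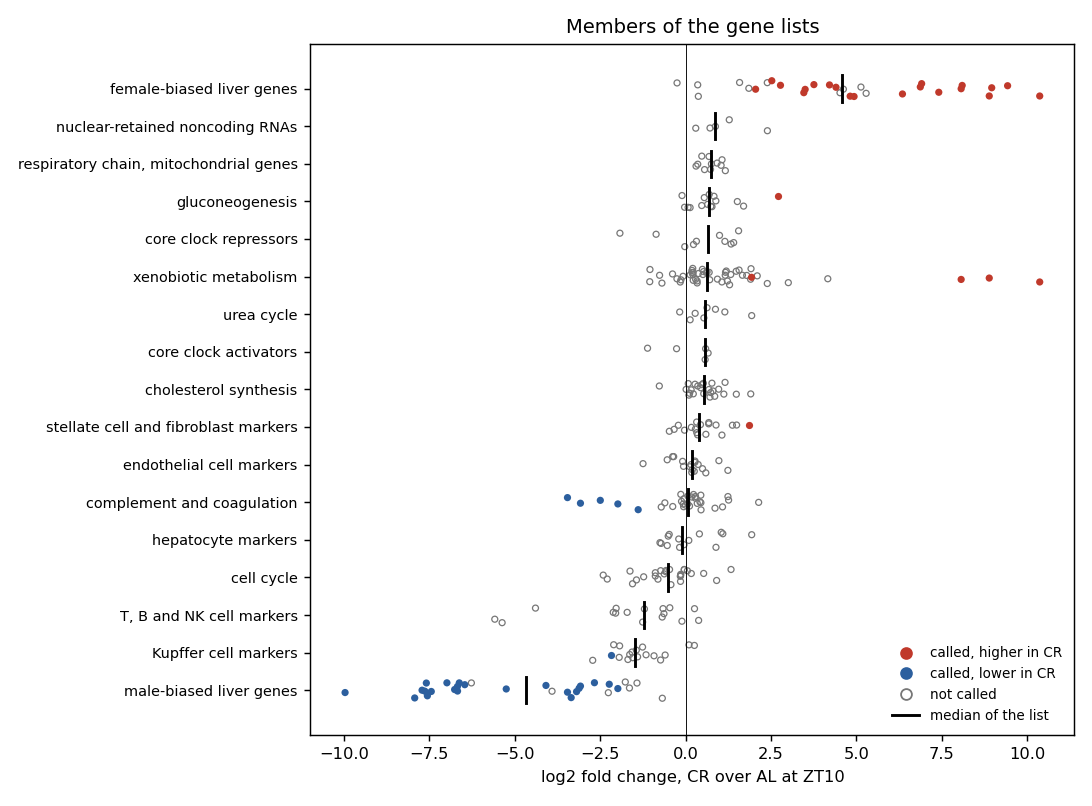
Log2 fold change of CR over AL at ZT10 for the tested members of the gene lists described, 1 point per gene. Filled points are called genes (red higher, blue lower in CR), open points are not called and black bars are list medians, which run from 4.57 for female-biased genes to -4.67 for male-biased genes, with most other lists between -0.52 and 0.87.

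Further lists gave medians without calls. The 26 tested cell cycle genes had a median of -0.52, or -0.88 with no composition factor, and the 5 tested nuclear-retained noncoding RNAs had a median of 0.87. Such RNAs can vary with RNA quality and nuclear carry-over. Malat1, one of them, had 363 and 127 CPM in CR, against 178 and 89.7 CPM in AL (adjusted p = 0.78 by edgeR). The other 33 of the 55 lists had medians between -0.47 and 0.47 and at most 3 calls each. The cytosolic ribosomal protein genes were among them, and their sum was 18910 and 6678 CPM in CR 1B and CR 2, against 12410 and 13870 CPM in AL, so that the CR libraries stood on either side of AL.

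Nearly all genes called at ZT10 differed the same way at the other times. The same contrast, averaged over ZT2, ZT6, ZT14, ZT18 and ZT22, uses 20 libraries that do not enter the ZT10 difference, although all share 1 estimate of the spread. It called 1430 genes (9.23%), of which 1300, or 90.9%, had the same sign at ZT10, beside 63.9% of all genes, 579 had an unadjusted p under 0.05 at ZT10 and 107 were called there. Over the 1294 of them with counts in every group, the log2 fold changes of ZT10 and of the other times had a Pearson's r of 0.895 across genes, which are not independent, and a slope through 0 of 1.04. Of the 115 genes called at ZT10, 113 had the same sign at the other times and 107 were also called there. In 102 the size was larger at ZT10, which the choice of genes by their ZT10 value favours. Hsd3b5 differed by -7.59 at ZT10 and by -5.76 ± 0.38 at the other times, and Cux2 by 6.87 and 5.77 ± 0.41.

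**Figure D5:**
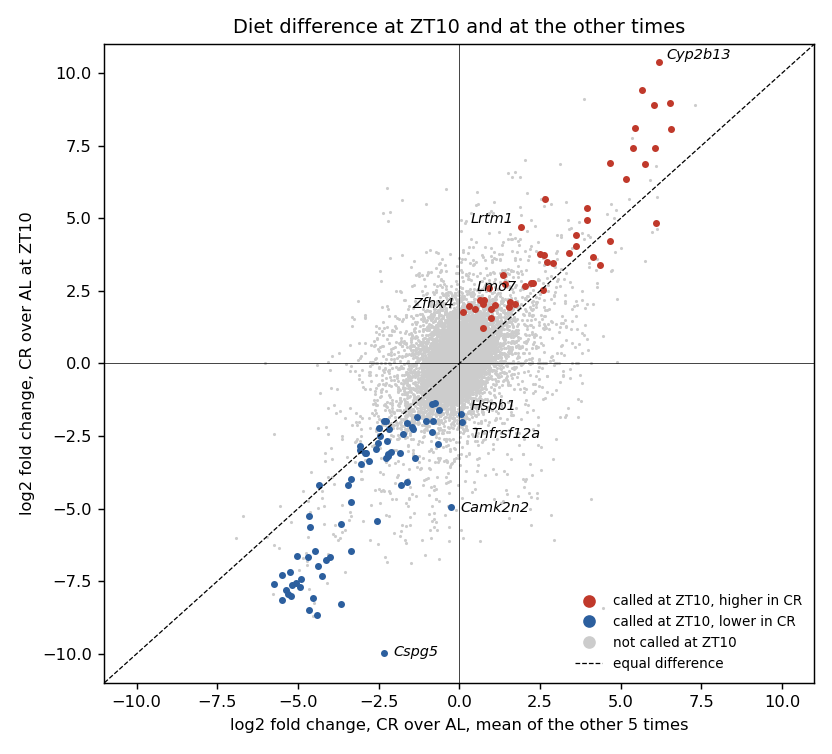
Log2 fold change of CR over AL at ZT10 (vertical) against the mean of the other 5 times (horizontal), 1 point per tested gene, with the line of equal difference dashed. The genes called at ZT10 (46 red, 69 blue) lie in the quadrants of equal sign except for Tnfrsf12a and Hspb1, and Camk2n2 lies near 0 on the horizontal axis.

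No gene was called in the test of the ZT10 difference against the mean of the other 5 times (0 of 15490, 0%, quasi-likelihood test of edgeR, Benjamini-Hochberg adjustment, smallest adjusted p 0.986). At an unadjusted p under 0.05 there were 749 genes (4.84%), with 870 by DESeq2 and 622 by limma, and the adjusted count was 0 by both. Some called genes nevertheless had a mean near 0 over the other 5 times, and they were chosen here after their values were seen. Values given below for the other times are such means unless a single time is named. Tnfrsf12a, a receptor of the TNF family induced by injury, had 3.63 and 1.79 CPM in CR, against 12.8 and 9.25 CPM in AL, a log2 fold change of -2.0 ± 0.42 at ZT10 and 0.08 ± 0.18 at the other times. Hspb1, a small heat shock protein, had 5.86 and 7.37 CPM in CR, against 19.7 and 24.1 CPM in AL (-1.73 ± 0.38, and 0.05 ± 0.16 at the other times). Its value at single times ran from -1.55 at ZT6 to 1.08 at ZT22, and 50.1% of its words occur in other genes. Camk2n2, an inhibitor of a calcium-dependent kinase, had 3 counts in CR, against 133 in AL, a ratio of 44.2 with a 95% counting interval of 14.8 to 217, and -0.25 ± 0.39 at the other times. Zfhx4 and Lmo7 were higher at ZT10 (1.78 ± 0.41 and 1.98 ± 0.46) and at 0.11 ± 0.18 and 0.30 ± 0.20 at the other times. At single other times Zfhx4 ran from -0.59 at ZT14 to 0.96 at ZT18, and Lmo7 from -0.80 at ZT22 to 1.10 at ZT6. Tnfrsf12a ran from -0.64 at ZT18 to 0.40 at ZT14, and Camk2n2 from -0.88 at ZT6 to 0.65 at ZT22. Each of these 5 calls was lost when single libraries were left out: Tnfrsf12a without CR 2 (adjusted p = 0.112), AL 1 (0.301) or AL 2 (0.0579), Camk2n2 without CR 1B (0.149), AL 1 (0.132) or AL 2 (0.106), Zfhx4 and Lmo7 without CR 2 (log2 fold change 1.14, 0.213, and 1.21, 0.234), AL 1 (0.264 and 0.495) or AL 2 (0.408 and 0.166), and Hspb1 without any one of the 4 (0.0518 to 0.227).

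Among further called genes, Sdf2l1, a cofactor of chaperones in the endoplasmic reticulum, fell with 4.32 and 3.83 CPM in CR, against 32.2 and 36.9 CPM in AL (-3.08 ± 0.51, adjusted p = 0.00229 by edgeR with Benjamini-Hochberg adjustment). It was called whichever library was left out, and its list, the unfolded protein response, had this 1 call among 26 tested and a median of -0.33, or -0.65 with no composition factor. Ank3, which anchors membrane proteins to the cytoskeleton, rose with 35.3 and 29.7 CPM in CR, against 4.69 and 6.04 CPM in AL (2.60 ± 0.40, 0.00149), and it too was called without each single library. At the other times its log2 fold change was 0.93 ± 0.18. Slc16a5, of the monocarboxylate transporter family, rose with 18.1 and 35.9 CPM in CR, against 1.61 and 2.28 CPM in AL (3.79 ± 0.62, 0.00215), and was lost without AL 1 (3.60, 0.0532). Slc10a2, the sodium-dependent bile acid transporter best known from ileum, fell with 1.70 and 1.62 CPM in CR, against 10.7 and 15.1 CPM in AL (-2.95 ± 0.61, 0.0177), and was lost without CR 1B (0.0654), CR 2 (0.0727) or AL 2 (0.125). Trim24, a transcriptional coregulator and 1 of the 20 female-biased genes called, rose with 58.4 and 45.0 CPM in CR, against 10.5 and 14.5 CPM in AL (2.05 ± 0.37, 0.00498), and was lost without AL 1 (0.153) or AL 2 (0.0521).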

How the data were processed

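Polysome-associated poly(A) RNA of mouse liver was sequenced in 24 libraries (2 diets, 6 times, 2 libraries a group), non-stranded per the labels' protocols. The deposited values are raw read counts per Ensembl gene. HTSeq, FastQC, DESeq2 and the build GRCm38.p5 are named in the submitters' processing notes, and the aligner is not given in the sources used here. Groups came from the sample titles. The files hold 52636 genes, and 52489 were given a symbol from GENCODE M21. The 363 ribosomal RNA features stayed in the main fit.

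All 24 libraries were fitted with edgeR 4.0.16 (R 4.3.3): TMM factors, filterByExpr over the 12 groups and the quasi-likelihood test of CR minus AL at ZT10. Genes were called at a Benjamini-Hochberg adjusted p under 0.05 over all 15490 genes tested. Standard errors are the log2 fold change divided by the square root of F. The ZT10 difference was also tested against the mean of the other 5 times. Alternatives used DESeq2 1.42.0, limma 3.58.1 (prior count 2), other scalings and filters, and left-out libraries. The statistics were tested on simulated data. Counting intervals are exact (95%) and cover counting error only. Promoters are from RefSeq (GRCm38.p6).

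Named were the 12 higher and 12 lower called genes of largest fold change with a mean of at least 10 CPM, no overlap and a common symbol, the clock genes, up to 4 called genes of smallest p per list discussed, and Igf1, Igfbp1, Ghr, Fgf21, Ppargc1a, Pck1 and Cyp7a1. Some genes that this rule covers are not reported here. Lists were discussed with at least 4 calls, with a median beyond 0.5 or as cell type markers. Other genes were named after their values were seen, namely Camk2n2, Tnfrsf12a, Hspb1, Zfhx4, Lmo7, Sdf2l1, Pdk4, Ppp1r3g, Lepr, Ank3, Abcb1a, Gstp1, Mup3, C8a, Ces3a, Cyp7b1, Cyp17a1, Fmo2, Abcd2, Cyp39a1, Cd74, Slc16a5, Trim24, Slco1a1, Selenbp2, Nudt7, Cspg5, Sult3a1, Slc10a2 and all genes given as not called outside the rule. The members and lists were chosen with earlier results of these data known.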

Additional observations from a re-analysis of the deposited data

How the results depend on the processing

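The 115 genes called at ZT10 became 425 (218 higher, 207 lower) with no low-count filter, 341 (160 and 181) by DESeq2, 19 (11 and 8) with only the 4 ZT10 libraries, and 62 (15 and 47) without CR 2 and AL 1 together, chosen after seeing the data. Leaving out 1 library gave 40 to 223, where the lone library of a group is assumed to vary like the other groups. The count was 118 with DESeq2's size factors, 91 (27 and 64) with no composition factor, 99 with at least 1 CPM in 12 libraries, 115 by limma, 120 without ribosomal RNA features and 115 at 2-fold or more. With the replicate block it was 114, of which 109 were shared. Across genes, the difference between libraries 1 and 2 correlated at 0.193 between the CR and AL groups of ZT10. Over 55 group pairs this correlation ran from -0.276 to 0.518, with 10 pairs over 0.1. The labels give no batch, and the numbers were not taken as pairs in the main fit. The test of ZT10 against the other times called 111 genes with no low-count filter, 0 to 5 without 1 library and 0 with the replicate block. In 1586 settings of 114 named genes, 1291 kept side and direction, 249 lost the call, 24 gained it and 22 changed sign, none among called genes.

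The log2 fold change changed sign in some genes that were not called, and the cause was not tested. Bhlhe40 was 0.0206 under size factors as DESeq2 makes them, 0.0208 by DESeq2, 0.0161 with only the 4 libraries, 0.0294 with at least 1 CPM, 0.0805 by limma and 0.00694 without ribosomal RNA features. With no composition factor, Cry1 was -0.17, Hlf -0.28 and Nr1d2 -0.0541. Without CR 2 and AL 1 together, Cps1 was -0.25, Cry1 -0.26, Hlf -0.0573, Nr1d2 -0.0232 and mt-Co1 -1.31. Leaving out 1 library gave -3.73 to 0.21 for Arntl, -0.47 to 0.70 for Bhlhe40, -0.22 to 0.57 for Cry1, -0.0779 to 0.154 for Hlf, -0.58 to 0.71 for Igf1, -0.0879 to 1.51 for Malat1 and -0.97 to 1.84 for mt-Co1. The 14.3 M reads of CR 2 outside ribosomal RNA features limit its low genes most.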
